A study of Mus musculus with 18 samples.

Results

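The genes described are 9 that mark the alveolar type 1 cell of the lung: Ager, Pdpn, Cav1, Emp2, Akap5, Rtkn2, Clic5, Hopx and Vegfa. They were taken by symbol as known markers of this cell, with earlier results of these data known, and each had 1 single-symbol probe set among the 19938 genes tested. The study measured total RNA from mouse lung samples labelled terminal bronchiolar epithelial cells, in control mice and in Cebpa d/d mice. All mice carried a mixture of the FVB/N and C57BL/6 strains, and both genotypes were sampled at 0, 3 and 72 hr after naphthalene, with 3 arrays in each of the 6 groups. Naphthalene is a toxicant that injures the club cells of the mouse airway, and Cebpa encodes a transcription factor of lung epithelium. The labels used here give neither the promoter that drives the deletion nor the age of the mice.

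Alveolar type 1 cells are thin, wide cells that cover most of the gas exchange surface and lie against the capillaries, separated from them by a shared basement membrane. Alveolar type 2 cells, which make surfactant, can give rise to them after injury. Several of the 9 genes are not private to the type 1 cell: Cav1, for one, is also strongly expressed by endothelial cells. In bulk samples such as these, fewer cells of a type and less RNA per cell cannot be told apart.

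Ager encodes the receptor for advanced glycation end products, which is abundant on the basolateral membrane of the type 1 cell, and Pdpn encodes podoplanin, a glycoprotein of its apical membrane. Cav1 is the main structural protein of caveolae, and Emp2 is a membrane protein of the epithelial membrane protein family. Akap5 anchors protein kinase A and calcineurin at the membrane, and Clic5 is an intracellular chloride channel family protein associated with the actin cortex. Hopx is an atypical homeodomain protein that does not bind DNA itself, and Vegfa is a secreted growth factor for endothelial cells.

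The promoters of Hopx, Clic5 and Vegfa are shown because these 3 members were the ones called between 3 and 72 hr in control mice. Each line gives the 250 bases before the RefSeq start in GRCm38.p6, and capitals mark a match to a motif searched on both strands. The windows are chr5:77115124-77115373 on the minus strand for Hopx, chr17:44188322-44188571 on the plus strand for Clic5 and chr17:46032378-46032627 on the minus strand for Vegfa.
Hopx: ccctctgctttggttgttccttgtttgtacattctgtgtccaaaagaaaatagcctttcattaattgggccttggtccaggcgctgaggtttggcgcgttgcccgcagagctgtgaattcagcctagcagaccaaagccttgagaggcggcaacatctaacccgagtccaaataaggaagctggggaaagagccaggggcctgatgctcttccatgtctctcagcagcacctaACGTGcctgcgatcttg
Clic5: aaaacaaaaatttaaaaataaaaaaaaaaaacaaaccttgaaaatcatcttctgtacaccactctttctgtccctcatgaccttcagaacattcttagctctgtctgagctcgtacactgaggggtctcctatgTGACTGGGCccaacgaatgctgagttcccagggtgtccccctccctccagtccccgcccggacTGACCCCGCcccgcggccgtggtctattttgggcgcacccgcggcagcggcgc
Vegfa: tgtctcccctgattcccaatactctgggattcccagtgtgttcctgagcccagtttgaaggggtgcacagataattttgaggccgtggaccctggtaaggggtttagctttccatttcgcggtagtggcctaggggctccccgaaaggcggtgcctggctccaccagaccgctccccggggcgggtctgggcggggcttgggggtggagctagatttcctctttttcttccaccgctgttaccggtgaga
In Hopx the capitals mark ACGTG, the core of the hypoxia response element, which 16.6% of 32851 promoter windows of this length held. In Clic5 they mark TGACNNNGC, the antioxidant response element, at 116 and 53 bases before the start, and 10.2% of windows held it. The Vegfa window printed held no match to these or to TTGCNNAA (C/EBP, 9.56% of windows), GGAATG (TEAD, 12.6%) or TGANTCA (AP-1, 6.75%). The 8 members in the promoter table had 11 windows, and the first window of each was counted: 3 held ACGTG, 2 held TGACNNNGC and 0 held any of the other motifs. Over all 11 windows 4 members held ACGTG, since the other window of Vegfa has it at 211 bases before that start, and the other window of Hopx has it at 232, 86 and 85 bases. A match is a description of letters and not a site.

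The labels were checked with Cebpa. Its log2 level was 10.30 to 10.52 on the control arrays at 3 hr and 9.69 to 9.87 at 72 hr, and it was 7.83 to 9.07 on the 9 Cebpa d/d arrays. Averaged over the times it was lower in Cebpa d/d by -1.58 ± 0.24 (SE, limma adjusted p = 0.00953). At 0 hr the arrays labelled control gave 7.89, 10.07 and 10.17, so the array labelled control 0 hr replicate 1 lay within the Cebpa d/d range and went against its label. That array was the highest of all 18 for 5 members (Ager, Akap5, Cav1, Emp2 and Clic5), and each called difference of a member that rests on the 0 hr controls is given with and without it. Without it the Cebpa difference was -1.82 ± 0.12 (limma adjusted p = 8.07e-07). By Xist, 2 of 6 arrays at 0 hr, 2 of 6 at 3 hr and 6 of 6 at 72 hr were from females. Array medians ran from 6.48 to 6.65, and arrays of 1 group correlated at 0.973 to 0.992. Transcripts of other cell types were present in every group: group means were 13.03 to 13.23 for Sftpc of type 2 cells, 12.68 to 12.84 for Scgb1a1 of club cells, 9.21 to 10.11 for Pecam1 of endothelium and 10.28 to 10.89 for Myh11 of smooth muscle.

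**Figure D1:**
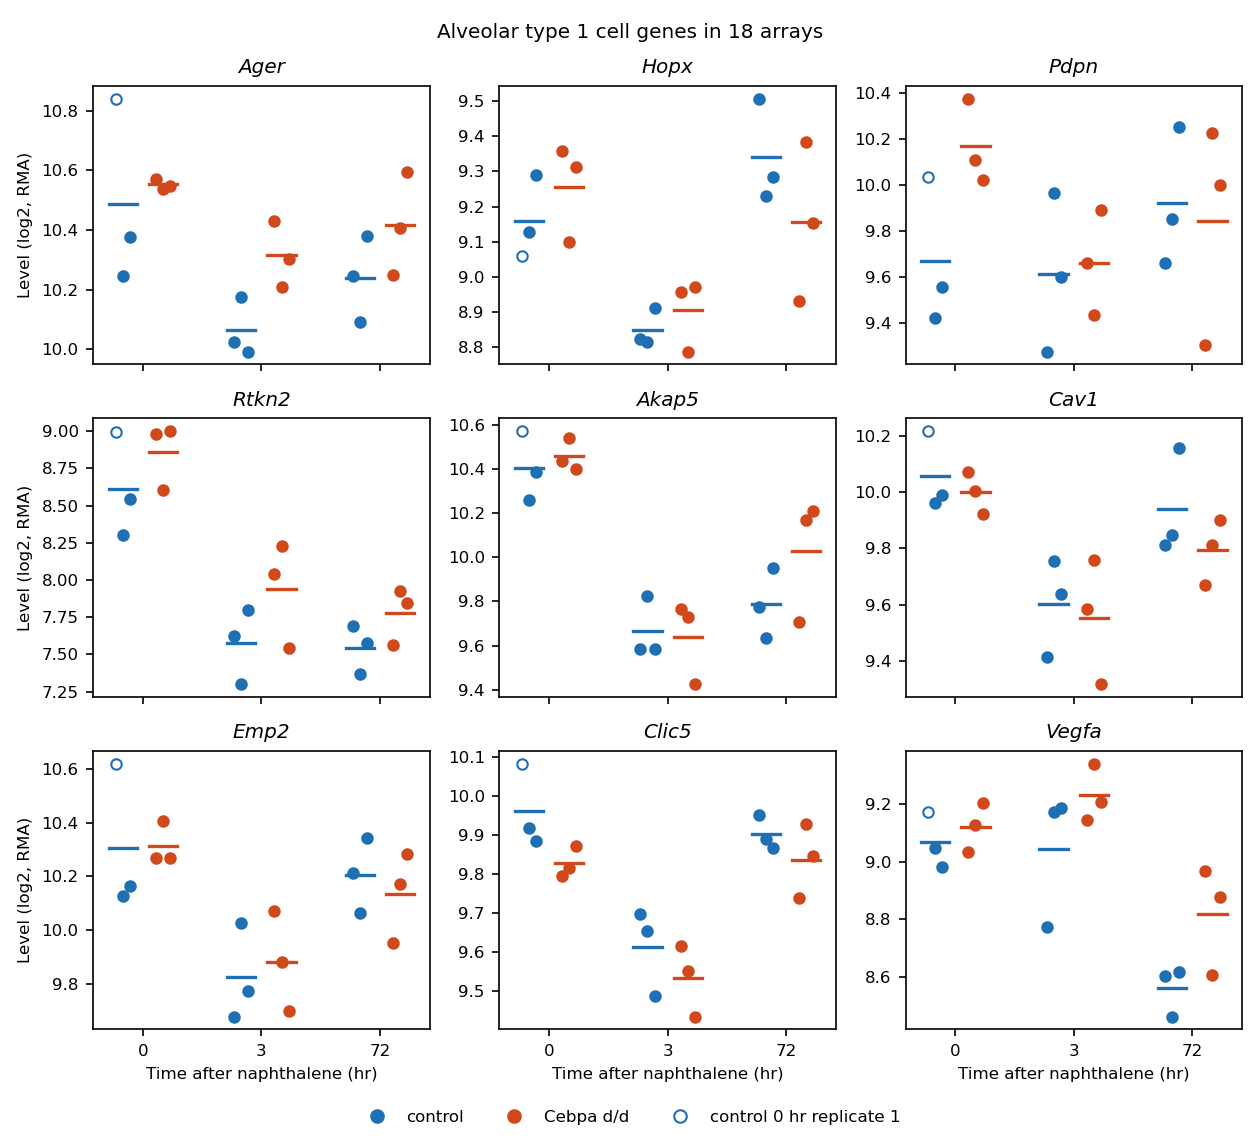
Log2 level of each of the 9 genes on every array, by genotype and hours after naphthalene; points are arrays, bars are group means, and the open circle is the array labelled control 0 hr replicate 1. Rtkn2 and Akap5 lie lower at 3 and 72 hr than at 0 hr in both genotypes.

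Across the 6 groups, which were put in order of each member's mean, neighbours lie closest in mean by construction. The share of such pairs without overlap was not counted for all genes, so the members' count is a description only. Neighbouring groups failed to overlap in 3 of 45 pairs. These were the step from Cebpa d/d 3 hr up to control 0 hr for Rtkn2 (0.68), from Cebpa d/d 72 hr up to control 0 hr for Akap5 (0.38) and from control 3 hr up to Cebpa d/d 0 hr for Clic5 (0.22).

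Within the first 3 hr in control mice Rtkn2, Akap5 and Clic5 fell, and the other 6 members did not pass the test. All 9 differences were negative (7 of 9 with control 0 hr replicate 1 left out). Of the 9 members 3 were called, all lower, where 1.62% of all genes were called lower and 3.50% in either direction. The median difference of the members was -0.42, against 0.03 for all genes.

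Rtkn2 read 8.99, 8.30 and 8.55 in the control 0 hr arrays and 7.62, 7.30 and 7.80 at 3 hr. Every 3 hr array was below every 0 hr array. The difference was -1.04 ± 0.19 (SE, 2.05-fold lower, limma adjusted p = 0.00915). Akap5 read 10.57, 10.26 and 10.38 at 0 hr and 9.58, 9.82 and 9.58 at 3 hr, again without overlap. Its difference was -0.74 ± 0.14 (1.67-fold lower, limma adjusted p = 0.00867). With control 0 hr replicate 1 left out, Rtkn2 still fell (-0.85, limma adjusted p = 0.0423) and so did Akap5 (-0.66, limma adjusted p = 0.0401). Both calls ended when only the compared groups were in the fit (adjusted p = 0.0952 for Rtkn2 and 0.0780 for Akap5).

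Clic5 read 10.08, 9.92 and 9.89 at 0 hr and 9.70, 9.66 and 9.49 at 3 hr. The groups did not overlap, and the difference was -0.35 ± 0.08 (limma adjusted p = 0.0343). This call rested on single arrays: leaving out control 0 hr replicate 1 or 3 gave a limma adjusted p of 0.127 or 0.0579, and leaving out control 3 hr replicate 2 or 3 gave 0.0669 or 0.143. With only the compared groups it was 0.245.

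The membrane genes did not pass. Ager read 10.84, 10.25 and 10.38 at 0 hr and 10.02, 10.18 and 9.99 at 3 hr, a difference of -0.42 ± 0.13 (limma adjusted p = 0.0824). Cav1, the caveolar protein, read 10.22, 9.96 and 9.99 at 0 hr and 9.41, 9.76 and 9.64 at 3 hr (-0.45 ± 0.13, limma adjusted p = 0.0595). Emp2 read 10.62, 10.13 and 10.16 at 0 hr and 9.68, 10.03 and 9.77 at 3 hr (-0.48 ± 0.14, limma adjusted p = 0.0677). For Ager, Cav1 and Emp2 the array labelled control 0 hr replicate 1 was the highest of its group. Hopx, the homeodomain protein, read 9.06, 9.13 and 9.29 at 0 hr and lay at 8.82 to 8.91 at 3 hr (-0.31 ± 0.12, limma adjusted p = 0.14). In each of these 4 genes the groups did not overlap, so that 7 members in all lay wholly lower at 3 hr, where 8.98% of all genes did. Without control 0 hr replicate 2, Ager (limma adjusted p = 0.0377) and Emp2 (0.0497) were called as well. Pdpn (-0.06 ± 0.23) and Vegfa (-0.02 ± 0.12) had groups that overlapped. The array labelled control 0 hr replicate 1 moved these values: with it left out Ager differed by -0.25, Emp2 by -0.32, Cav1 by -0.37, Hopx by -0.36 (limma adjusted p = 0.174), Pdpn by 0.13 and Vegfa by 0.03, so the sign of the last pair turned.

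At 72 hr against 0 hr in control mice, Rtkn2, Akap5 and Vegfa were lower, which is 3 of 9 called lower where 2.20% of all genes were called lower and 7.15% in either direction. Rtkn2 read 7.69, 7.37 and 7.57 at 72 hr, all below its 0 hr arrays (-1.07 ± 0.19, limma adjusted p = 0.00355). Akap5 read 9.78, 9.63 and 9.95, also without overlap (-0.62 ± 0.14, limma adjusted p = 0.0117). Vegfa read 9.17, 9.05 and 8.98 at 0 hr and 8.60, 8.46 and 8.62 at 72 hr, with every 72 hr array the lower (-0.50 ± 0.12, limma adjusted p = 0.0149). These 3 were also the members whose groups did not overlap, where 12.4% of all genes lay wholly lower. Without control 72 hr replicate 2 the calls of Akap5 (limma adjusted p = 0.0697) and Vegfa (0.0787) ended. With control 0 hr replicate 1 left out the 3 calls held, at limma adjusted p = 0.0145 for Rtkn2, 0.0429 for Akap5 and 0.0479 for Vegfa. All 72 hr arrays were from females, and a fit with sex as a covariate also called 3 members in this comparison.

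Between 3 and 72 hr in control mice, Hopx and Clic5 rose and Vegfa fell: 3 of 9 members were called, where 19.7% of all genes were. This share is high across the table, and the members' count is to be read against it. Hopx read 8.82, 8.82 and 8.91 at 3 hr and 9.51, 9.23 and 9.28 at 72 hr, with no overlap (0.49 ± 0.12, limma adjusted p = 0.00762). Clic5 read 9.95, 9.89 and 9.87 at 72 hr, above all its 3 hr arrays (0.29 ± 0.08, limma adjusted p = 0.025). The Clic5 call ended without control 3 hr replicate 3 (0.115) or any one of the 72 hr control arrays (0.0518 to 0.0734) and with the sex covariate (0.0563). Vegfa read 8.77, 9.17 and 9.18 at 3 hr, above all 72 hr arrays (-0.48 ± 0.12, limma adjusted p = 0.0092). Cav1 (0.33 ± 0.13, limma adjusted p = 0.0718) and Emp2 (0.38 ± 0.14; 0.0634) did not pass, although their groups did not overlap; 4 members lay wholly higher, where 17.1% of all genes did. Emp2 was called without control 0 hr replicate 1, which enters here only through the shared spread (limma adjusted p = 0.0334). It was also called without control 3 hr replicate 2 (limma adjusted p = 0.0406). These control comparisons share arrays with each other.

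**Figure D2:**
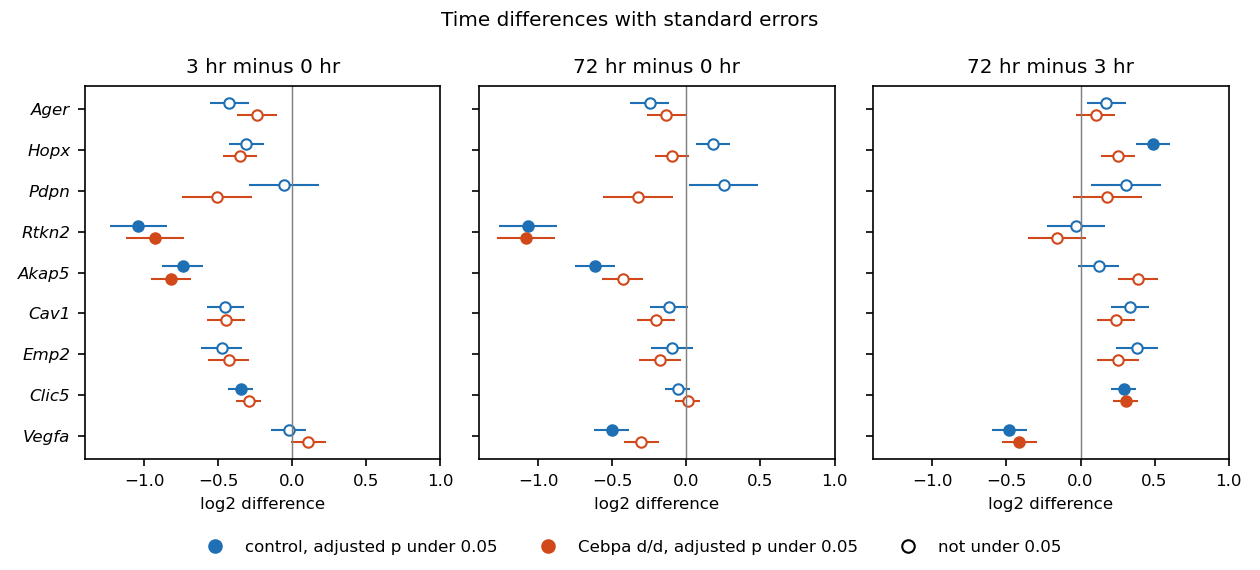
Log2 difference between times for each of the 9 genes in each genotype, with SE as bars; filled points passed the test. Rtkn2 lies near -1 in both genotypes at 3 and 72 hr against 0 hr.

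In Cebpa d/d mice the same comparisons were made with other arrays. From 0 to 3 hr, Rtkn2 and Akap5 fell, which is 2 of 9 called lower where 1.72% of all genes were called lower and 4.38% in either direction. Akap5 read 10.43, 10.54 and 10.40 at 0 hr and 9.77, 9.73 and 9.43 at 3 hr (-0.82 ± 0.14, limma adjusted p = 0.0021). Rtkn2 read 8.98, 8.61 and 9.0 at 0 hr and 8.04, 8.23 and 7.54 at 3 hr (-0.92 ± 0.19, limma adjusted p = 0.0111). In both genes every 3 hr array was below every 0 hr array. Without Cebpa d/d 3 hr replicate 3 the Rtkn2 call ended (limma adjusted p = 0.0729). In all, 8 members lay wholly lower at 3 hr, where 11.9% of all genes did; Cav1 (-0.45 ± 0.13, limma adjusted p = 0.0579), Clic5 (-0.29 ± 0.08; 0.061), Emp2 (-0.43 ± 0.14; 0.0996) and Hopx (-0.35 ± 0.12; 0.104) were not called. Cav1, Emp2 and Clic5 passed too when control 0 hr replicate 1, which enters here only through the shared spread, was left out (limma adjusted p = 0.0494, 0.0481 and 0.0488). Hopx read 9.36, 9.10 and 9.31 at 0 hr and 8.96, 8.79 and 8.97 at 3 hr in these mice, and Pdpn read 10.38, 10.11 and 10.02 and then 9.66, 9.43 and 9.89 (-0.51 ± 0.23, limma adjusted p = 0.276).

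At 72 hr in Cebpa d/d mice, Rtkn2 alone of the 9 was called against 0 hr, where 4.80% of all genes were. It read 7.56, 7.93 and 7.84, all below its 0 hr arrays (-1.08 ± 0.19, limma adjusted p = 0.00342). Akap5 read 9.71, 10.17 and 10.21, also below its 0 hr arrays, but did not pass (-0.43 ± 0.14, limma adjusted p = 0.087). In all, 4 members lay wholly lower, where 11.3% of all genes did. From 3 to 72 hr, Clic5 rose (0.30 ± 0.08, limma adjusted p = 0.0356) and Vegfa fell (-0.41 ± 0.12; 0.0372), where 8.55% of all genes were called. Clic5 read 9.62, 9.55 and 9.44 at 3 hr and 9.74, 9.93 and 9.85 at 72 hr. Vegfa read 9.15, 9.34 and 9.21 at 3 hr and 8.97, 8.61 and 8.88 at 72 hr. Neither pair of groups overlapped, and both calls ended without any one of the 3 hr arrays or of 72 hr replicates 2 and 3 (limma adjusted p from 0.0523 to 0.193).

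Heart muscle genes moved in the same Cebpa d/d comparisons. Of 24 measured, 21 were called lower at 3 hr than at 0 hr (median -2.38), where 1.72% of all genes were called lower. At 72 hr 20 were called lower (median -2.77), where 4.80% of all genes were called in either direction. Their mean log2 level was 8.94 to 9.79 on the Cebpa d/d 0 hr arrays, 7.10 to 7.53 at 3 hr and 6.78 to 7.03 at 72 hr. In controls it was 6.74 to 8.13, 6.72 to 7.35 and 6.81 to 7.04. There 0 of 24 were called at 3 or 72 hr against 0 hr (medians -0.55 and -0.73), where 3.50% and 7.15% of all genes were. The part of these genes in the members' differences was not tested.

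The genotypes were compared at each time to ask whether Cebpa d/d samples differ in type 1 genes. No member was called: 0 of 9 at 0 hr, where 0.336% of all genes were called, 0 of 9 at 3 hr (0.0150%), 0 of 9 at 72 hr (0.0702%) and 0 of 9 in the mean over the times (0.306%). With limma's unadjusted p under 0.05 the counts were 1, 0, 1 and 3, where 8.53%, 5.02%, 6.31% and 8.57% of all genes had such a p. At 0 hr the member with the smallest p was Pdpn, which read 10.04, 9.42 and 9.55 in controls and 10.38, 10.11 and 10.02 in Cebpa d/d (0.50 ± 0.23, limma adjusted p = 0.581). With control 0 hr replicate 1 left out Pdpn differed by 0.68 (limma adjusted p = 0.303), Ager by 0.24 (0.523), Rtkn2 by 0.44 (0.483) and Emp2 by 0.17 (0.795). At 3 hr it was Ager, at 10.43, 10.21 and 10.30 in Cebpa d/d and above all control arrays (0.25 ± 0.13, limma adjusted p = 0.986). Groups failed to overlap for 1 member at 0 hr (Clic5, lower in Cebpa d/d; 11.4% of all genes), 1 at 3 hr (Ager; 9.79%) and 0 at 72 hr (15.1%). At 72 hr it was Vegfa (0.26 ± 0.12, limma adjusted p = 0.783), and in the mean over times Rtkn2 (0.28 ± 0.11, limma adjusted p = 0.455). Ager differed in that mean by 0.16 ± 0.08 (limma adjusted p = 0.575). Leaving out 1 array in turn gave limma adjusted p from 0.173 to 0.718 for Rtkn2 and from 0.116 to 0.817 for Ager. The lowest under the other settings was 0.0735 for Rtkn2 and 0.0584 for Ager. Without control 0 hr replicate 1 the genes called in that mean rose from 61 to 201, none of them a member. The 95% intervals of the members' differences ran from -0.32 to 0.995 at 0 hr, from -0.45 to 0.77 at 3 hr and from -0.57 to 0.65 at 72 hr. At 0 hr, 15 of 24 heart muscle genes were called higher in Cebpa d/d (8 without control 0 hr replicate 3 or without Cebpa d/d 0 hr replicate 1 or 2), and their part in the members' values was not tested.

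**Figure D3:**
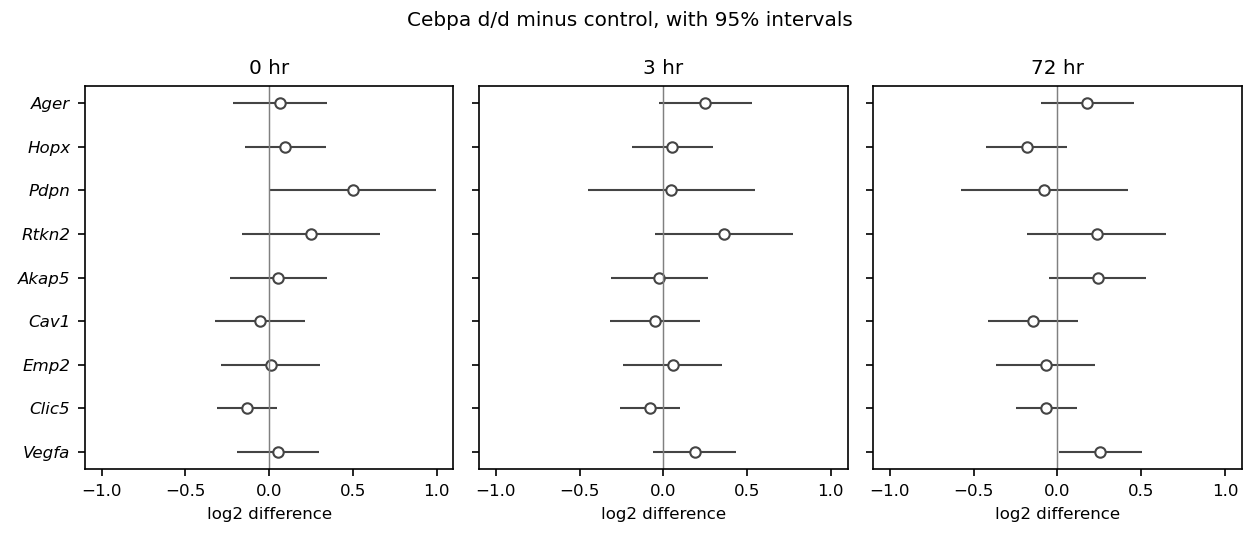
Log2 difference, Cebpa d/d minus control, for each of the 9 genes at 0, 3 and 72 hr; points are differences and lines are 95% intervals. No member passed the test at any of the 3 times.

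The change over time was then compared between genotypes. For 3 hr against 0 hr, limma called 0 of 9 members and 0% of all genes; for 72 hr against 0 hr it called 0 of 9, where 0.0953% of all genes were called. At unadjusted p under 0.05 the members' count was 0 in both, where 6.85% and 4.47% of all genes had such a p. The smallest p among the members was that of Pdpn in both, at -0.45 ± 0.33 (limma adjusted p = 0.787) and -0.58 ± 0.33 (limma adjusted p = 0.9998). With control 0 hr replicate 1 left out they were -0.63 (limma adjusted p = 0.795) and -0.76 (0.712).

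The members were also compared array by array. Over 18 arrays, with each group's mean removed, 31 of the 36 pairs had a positive correlation, with a median of 0.42. The highest were Akap5 with Emp2 (0.88) and Ager with Emp2 (0.88), and the lowest was Hopx with Vegfa (-0.41). The array labelled control 0 hr replicate 1 enters all of these pairs, and its deviation of Ager from the group mean (0.35) was the largest. The pairs were not recomputed without that array, so its part in them is not known. The genes most like Ager over the 18 arrays were Gm4951 (r = 0.93), Sp100 (0.90), Gbp4 (0.88), Slc39a8 (0.88) and Vgll4 (0.87). Those most like the members' mean were Gja5 (0.91), Gbp7 (0.91), Arhgap42 (0.91), Utrn (0.89) and Epb41l2 (0.89). All these values share the arrays and their normalization.

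**Figure D4:**
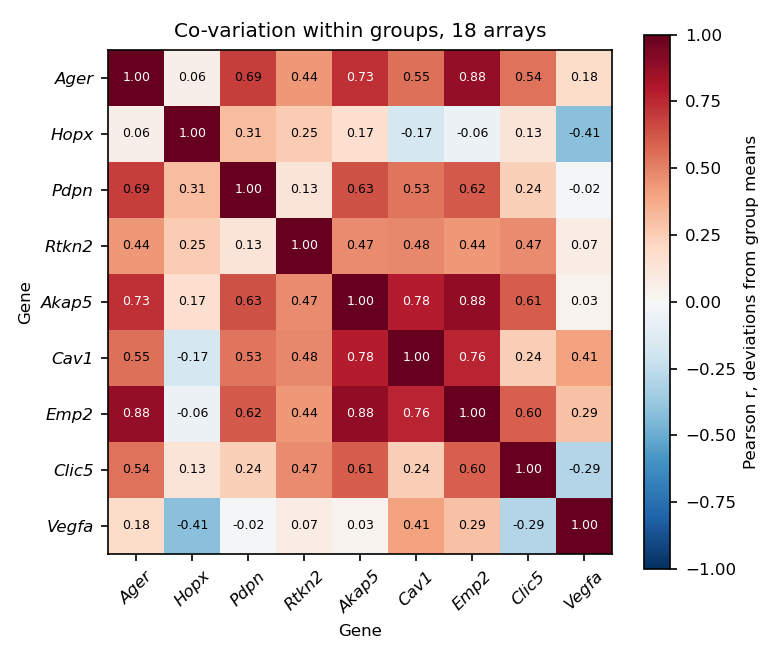
Correlation of each pair of the 9 genes over 18 arrays after removing group means. Most pairs are positive, and the pairs of Vegfa with Hopx and Clic5 are the lowest.

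A wider list of 32 measured type 1 genes was read in the same comparisons. Against 0 hr in controls, 0 were higher and 2 lower at 3 hr (median -0.16), where 3.50% of all genes were called, and 5 were higher and 2 lower at 72 hr (median 0.03), where 7.15% were. In Cebpa d/d mice 1 was higher and 1 lower at 3 hr (median -0.16, 4.38% of all genes), and 3 were higher and 2 lower at 72 hr (median 0.10, 4.80%). Single arrays moved these counts. In controls at 3 hr, 4 were lower and 2 higher without control 3 hr replicate 1, and 0 were lower without control 0 hr replicate 1 or 3, control 3 hr replicate 2 or 3, control 72 hr replicate 1 or 2, Cebpa d/d 0 hr replicate 3, Cebpa d/d 3 hr replicate 1 or Cebpa d/d 72 hr replicate 2 or 3. At 72 hr in controls, 2 were higher without control 0 hr replicate 3 or control 72 hr replicate 2, and 3 without control 0 hr replicate 2 or control 72 hr replicate 1 or 3. At 3 hr in Cebpa d/d mice, 0 were called without 0 hr replicate 2 or without 3 hr replicate 1 or 3. At 72 hr, 6 were higher without Cebpa d/d 72 hr replicate 1, 0 without replicate 2 and 1 without replicate 3. From 3 to 72 hr in controls 12 rose and 2 fell, with a median of 0.22 against -0.07 for all genes, of which 19.7% were called. Among them Tspan8 rose by 1.51 ± 0.21, Sec14l3 by 0.83 ± 0.12, the water channel gene Aqp5 by 0.69 ± 0.12 and the sodium channel subunit gene Scnn1a by 0.55 ± 0.12 (limma adjusted p = 0.000185, 0.000295, 0.000818 and 0.00509). Without control 72 hr replicate 3 the 12 became 6, and the 2 became 1 without any one of control 3 hr replicates 2 and 3 and control 72 hr replicates 2 and 3. In Cebpa d/d mice 7 rose and 1 fell, where 8.55% of all genes were called. There 4, 3 and 0 were higher without 3 hr replicates 1, 2 and 3, and 0 without 72 hr replicate 2 or 3. Sec14l3 is in both the wider type 1 list and the list of ciliated cell genes. From 3 to 72 hr the mean level of 27 ciliated cell genes, Sec14l3 among them, went from 8.67 to 9.37 in controls. In Cebpa d/d mice it went from 8.64 to 9.16. The part of ciliated cells in the rise of Tspan8, Sec14l3, Aqp5 and Scnn1a was not tested.

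The partners of the members were read from lists of their pathways. Of 11 genes of the VEGF axis, the co-receptor Nrp1 fell at 3 hr in controls (-1.02 ± 0.17, limma adjusted p = 0.00412) and the receptor Kdr was lower at 72 hr (-1.32 ± 0.26; 0.00521). In Cebpa d/d mice the receptor Flt1 was lower at 3 hr (-0.83 ± 0.16, limma adjusted p = 0.00677) and at 72 hr (-0.80 ± 0.16, limma adjusted p = 0.00798). Of all genes, 3.50% and 7.15% were called at 3 and 72 hr against 0 hr in controls, and 4.38% and 4.80% in Cebpa d/d. The mean level of the 11 genes was 8.18, 7.88 and 8.14 at 0, 3 and 72 hr in controls. In Cebpa d/d it was 8.13, 7.81 and 8.02. Kdr is also in the list of endothelial genes read further on. Counts of calls are given here for the RAGE pathway list only, and the other genes named are single genes of their lists. Of 12 measured genes of the RAGE pathway, 5 were higher and 0 lower at 72 hr against 0 hr in controls, where 7.15% of all genes were called in either direction. The S100 ligand genes S100a4 (1.499 ± 0.24, limma adjusted p = 0.00158) and S100a6 (1.38 ± 0.20; 0.000984) led them; the 5 became 3 without control 0 hr replicate 2 or control 72 hr replicate 2 or 3. In the list of podoplanin and Clic partners, Ezr, which links membrane proteins to actin, was higher at 72 hr in controls (0.92 ± 0.17, limma adjusted p = 0.00407), as was Clic1 (0.85 ± 0.18; 0.00839). Among caveolar genes, Cavin2 fell at 3 hr in controls (-0.49 ± 0.13, limma adjusted p = 0.0403). Cav2 rose from 3 to 72 hr (0.66 ± 0.15, limma adjusted p = 0.00586), where 19.7% of all genes were called. The mean level of 13 caveolar genes was 7.65, 7.57 and 7.69 at 0, 3 and 72 hr in controls. With control 0 hr replicate 1 left out the Cavin2 call ended (-0.38, limma adjusted p = 0.151), and the calls of Nrp1 (-0.81, limma adjusted p = 0.0151), Kdr (-1.28, 0.0166), S100a4 (1.74, 0.00113), S100a6 (1.503, 0.00173), Ezr (0.87, 0.0147) and Clic1 (0.97, 0.00763) held.

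Endothelial genes were lower at both later times too. Of 25 measured, 7 were lower and 0 higher at 3 hr in controls (median -0.46), where 1.62% of all genes were called lower. At 72 hr 12 were lower and 0 higher (median -0.43), where 2.20% of all genes were called lower. The angiopoietin receptor gene Tek (-0.93 ± 0.17, limma adjusted p = 0.00773) fell at 3 hr and Pecam1 (-0.84 ± 0.15; 0.00258) at 72 hr, and both calls held without control 0 hr replicate 1 (limma adjusted p = 0.0356 and 0.0112). The 7 became 2 without control 0 hr replicate 1 or control 3 hr replicate 3 and 4 without control 0 hr replicate 3; the 12 became 6 without control 0 hr replicate 1 or control 72 hr replicate 1 and 4 without control 72 hr replicate 2. In Cebpa d/d mice 4 were lower at 3 hr, where 1.72% of all genes were called lower, and 6 at 72 hr, where 4.80% were called in either direction. Single arrays moved the 4 to 2 (Cebpa d/d 0 hr replicate 1 or 2, or 3 hr replicate 3), 7 (control 0 hr or 3 hr replicate 1) or 8 (Cebpa d/d 3 hr replicate 2), and the 6 to 10 (control 0 hr replicate 1) or 2 (Cebpa d/d 72 hr replicate 2). The list's mean level was 8.58 to 9.05 on the control 0 hr arrays, 8.14 to 8.43 at 3 hr and 8.16 to 8.48 at 72 hr, and in Cebpa d/d 8.67 to 8.98, 8.11 to 8.51 and 8.23 to 8.33. None of these markers can be at 0 on this scale. Other lists moved at 3 hr as well. Of 12 smooth muscle genes 4 were lower in controls (median -0.29), among them the smooth muscle myosin gene Myh11 (-0.61 ± 0.14, limma adjusted p = 0.0265, and 0.0794 without control 0 hr replicate 1). Leaving out 1 array gave 0 (control 0 hr replicate 1 or 3, or control 3 hr replicate 3), 1 (control 3 hr replicate 2) or 2 (replicate 2 at 72 hr of either genotype) in place of the 4. Of 22 fibroblast genes 2 were lower (median -0.33; 1 without control 0 hr replicate 1 or 3, control 3 hr replicate 2 or 3, control 72 hr replicate 1 or Cebpa d/d 3 hr replicate 1), and of 10 mesothelial genes 1 was higher and 1 lower (median -0.34). At 3 hr in the Cebpa d/d arrays, 1 smooth muscle gene (median -0.18), 0 fibroblast genes (median -0.29) and 3 mesothelial genes (median -0.45, 0 without Cebpa d/d 0 hr replicate 1) were lower. The part of these lists in the members' differences was not tested.

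**Figure D5:**
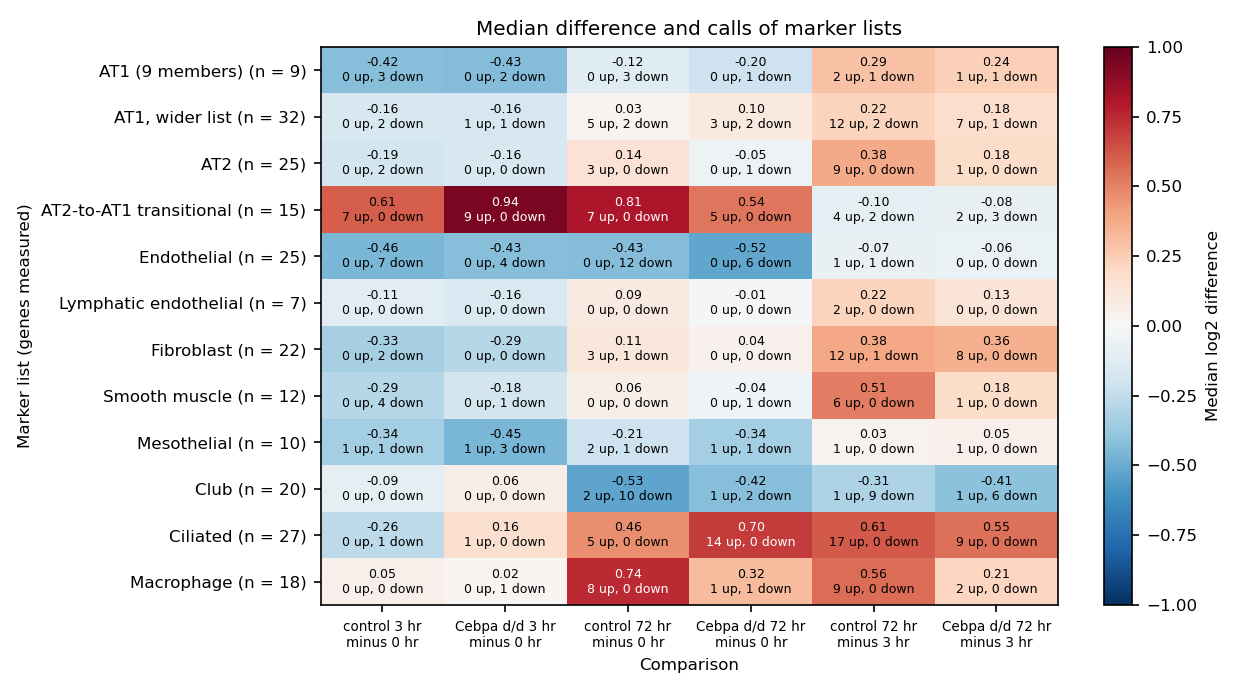
Median log2 difference (colour and first number) and genes called up and down for marker lists (rows) in 6 time comparisons (columns). The endothelial row has medians of -0.46 and -0.43 in controls at 3 and 72 hr against 0 hr.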

How the data were processed

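Total RNA of 18 mouse samples was hybridised to Affymetrix arrays, with 3 arrays in each of 6 groups. The authors deposited log2 values per probe set, and the submitters' processing notes name RMA as the method. RMA corrects background, quantile-normalizes the arrays and summarises probes, so a change shared by most genes would be removed. The version and genome build are not given in the sources used here, and the values carry no detection call. Of 35557 probe sets, 21789 carried 1 gene symbol, 1621 several and 12147 none; for the 999 genes with more than 1 single-symbol probe set the one with the highest mean was kept, leaving 19938 genes. Group means were fitted to all 18 arrays with limma 3.58.1 in R 4.3.3 (residual degrees of freedom 12), 12 contrasts were taken, and Benjamini-Hochberg adjustment ran over all genes within a contrast; a difference was called at an adjusted p under 0.05. The script was tested on simulated data. Precision is limited by having 3 arrays a group. Whether replicates are separate mice is not in the labels. By Xist, each group at 0 and 3 hr held arrays of both sexes, so its arrays cannot all come from 1 mouse. At the last time all arrays were from females, which leaves this open. Whether all 3 arrays of a group are separate mice is not known for any group. The p-values then reflect only how far these samples differ, which may include technical variation.

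The 9 members and all gene lists were chosen with earlier results of these data known, as was the choice of the 2 arrays left out together as doubtful (Cebpa d/d 72 hr replicate 1 and the first control array at 0 hr). On Cebpa d/d 72 hr replicate 1 Cebpa read 9.07, the highest of the Cebpa d/d arrays. That array was the lowest of its group for every member but Vegfa, for which it was the highest. Every member was tested in every contrast, but the text does not give each member's values in each contrast. From each list, up to 4 called genes with the smallest adjusted p were open to naming. So were Sftpc, Pecam1, Col1a2, Myh11, Scgb1a1 and Foxj1 as single markers. Alternatives were a filter on low genes, the mean of a gene's probe sets, trend and robust variance, array weights, a replicate block, only the groups compared, median centring, a sex covariate, a rule of unadjusted p under 0.05 with at least 1.5-fold, and leaving out each array in turn.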

Additional observations from a re-analysis of the deposited data

How the results depend on the processing

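Each of the 108 member differences was recomputed under 28 other settings; of 3015 values, 100 changed sign, 0 of them for a called difference, and 7 of the 14 called differences were called in every fit that left out 1 array. Without 1 array in turn, the number of members called ran from 2 to 5 for control 3 hr against 0 hr, from 1 to 3 for control 72 hr against 0 hr, from 2 to 4 for control 72 hr against 3 hr, from 1 to 5 for Cebpa d/d 3 hr against 0 hr, from 1 to 1 for Cebpa d/d 72 hr against 0 hr and from 0 to 3 for Cebpa d/d 72 hr against 3 hr; it was 0 in all genotype and interaction contrasts. For control 3 hr against 0 hr, 5 members were called among genes at or above the median level and 0 with only the compared groups in the fit, against 3. For control 72 hr against 3 hr, 0 passed the rule of unadjusted p under 0.05 with at least 1.5-fold. For Cebpa d/d 3 hr against 0 hr, 4 were called among genes at or above the median level, 4 with array weights and 5 without both doubtful arrays, against 2. For Cebpa d/d 72 hr against 3 hr, against 2, 1 was called with the replicate block, 0 with only the compared groups, 1 with arrays centred on their median, 0 with the sex covariate and 0 under the 1.5-fold rule. In that comparison array weights (limma adjusted p = 0.0067) and leaving out both doubtful arrays (0.0105) each added the call of Akap5. The cause was not tested.

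Same-numbered arrays of the genotypes at a time deviated together with r from -0.28 to 0.20 over 9 pairs, 3 of them over 0.1. At 72 hr the values were 0.20, 0.11 and 0.07. This gave no clear pairing by replicate number within a time, and pairing across times was not checked. The replicate block ended the call of Vegfa in Cebpa d/d 72 hr against 3 hr (limma adjusted p = 0.0552) and changed no other count of members called. Restricting the fit to the compared groups gives nothing new for the mean over 3 times, which uses all 6 groups. Over all genes, leaving out 1 array moved the calls from 697 to between 231 and 1414 for control 3 hr against 0 hr, from 1425 to between 614 and 1633 for control 72 hr against 0 hr, from 874 to between 402 and 994 for Cebpa d/d 3 hr against 0 hr, and from 1705 to between 768 and 1902 for Cebpa d/d 72 hr against 3 hr.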
